A study of Mus musculus with 6 samples.

Results

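Mammary epithelial cells hold their identity through a set of lineage transcription factors, and 10 of these were followed here in 4T1 cells that overexpressed METTL7A1. The members were the genes named Gata3, Trps1, Elf3, Elf5, Ehf, Sox4, Sox9, Tfap2c, Klf5 and Stat5a, taken by symbol from the 48587 genes of the count table, and all 10 were found. 4T1 is a mouse mammary carcinoma line, and METTL7A1 is a membrane-associated protein of the methyltransferase-like family. The METTL7A1 group consisted of 3 libraries from 4T1 cells stably transfected with full-length Mettl7a1 cDNA in a vector driven by the CMV promoter, and the mock group of 3 libraries from 4T1 cells that carried the empty vector. Both groups had gone through transfection and antibiotic selection. The study describes the libraries of each group as biological triplicates, and the labels number them. Neither says whether they came from separate clones. The p values below thus measure the spread between these libraries, which may come from a single transfected line in each group. Total RNA was sequenced, and the question was how far the transcripts of these factors differed between METTL7A1 and mock cells.

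In the mammary gland, luminal cells line the ducts and make milk, and basal cells surround them and contract. GATA3 maintains the luminal fate, ELF5 and STAT5A drive the milk-producing alveolar programme under prolactin, and SOX9 is associated with progenitor cells. The epithelium-specific ETS factors ELF3 and EHF, the AP-2 factor TFAP2C, the Krüppel-like factor KLF5, the GATA-type repressor TRPS1 and SOX4 act in many epithelia besides the mammary gland.

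The libraries held between 18386780 and 28459338 counts, and correlation of log2 expression was 0.992 to 0.997 within groups and 0.971 to 0.976 between them. Levels are given as cpm, the counts of a gene after each library was brought to the same effective size with TMM factors. Mettl7a1 had 6355, 11358 and 10398 counts in the METTL7A1 libraries and 30, 30 and 29 in the mock libraries, as the labels state. A single transcript, AY036118, took 0.502 to 4.53% of the counts in METTL7A1 libraries and 0.966 to 13.1% in mock libraries. In both groups the keratins of luminal cells were abundant, with Krt8 at 406 ± 45.8 and 405 ± 50.2 cpm (SD, n = 3) in METTL7A1 and mock cells. Of the basal markers, Krt5 had 0 counts and Trp63 at most 2 counts in any library, but Krt14 was at 37.8 ± 1.16 cpm in mock cells and Vim and Itga6 at 564 ± 59.5 and 334 ± 28.9 cpm (SD, n = 3). Among leukocyte markers Cd3e, a defining gene of T cells, was at 0 counts in all 6 libraries, whereas Cd68 was read in both groups, at 12.8 ± 1.32 and 5.43 ± 0.758 cpm (SD, n = 3).

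Of the 10 factors, 8 passed the abundance filter and were tested, each with more than 1 cpm in all 6 libraries. Ehf, Stat5a and Elf3 rose in METTL7A1 cells and Sox9 and Klf5 fell. Sox4, Gata3 and Trps1 did not pass the test at an adjusted p under 0.05 (edgeR quasi-likelihood test, Benjamini-Hochberg). Ehf rose by 5.57-fold, Stat5a by 1.68-fold and Elf3 by 1.39-fold. Thus 5 of 8 tested factors, or 62.5%, were called, 3 higher and 2 lower. Among all 13166 tested genes 42.1% were called, 21.1% higher and 21.0% lower, so that a call alone sets no factor apart in this comparison. The median log2 fold change was 0.13 over the 8 factors and -0.03 over all tested genes. Ehf alone of the 8 passed the thresholds of the study, an adjusted p under 0.01 and a log2 fold change over 1.5 in size, which 2.48% of all tested genes passed. The libraries of the groups did not overlap for 6 of the 8, compared with 51.6% of all tested genes. In such bulk RNA, fewer cells with a transcript and less of it in each cell cannot be told apart.

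**Figure D1:**
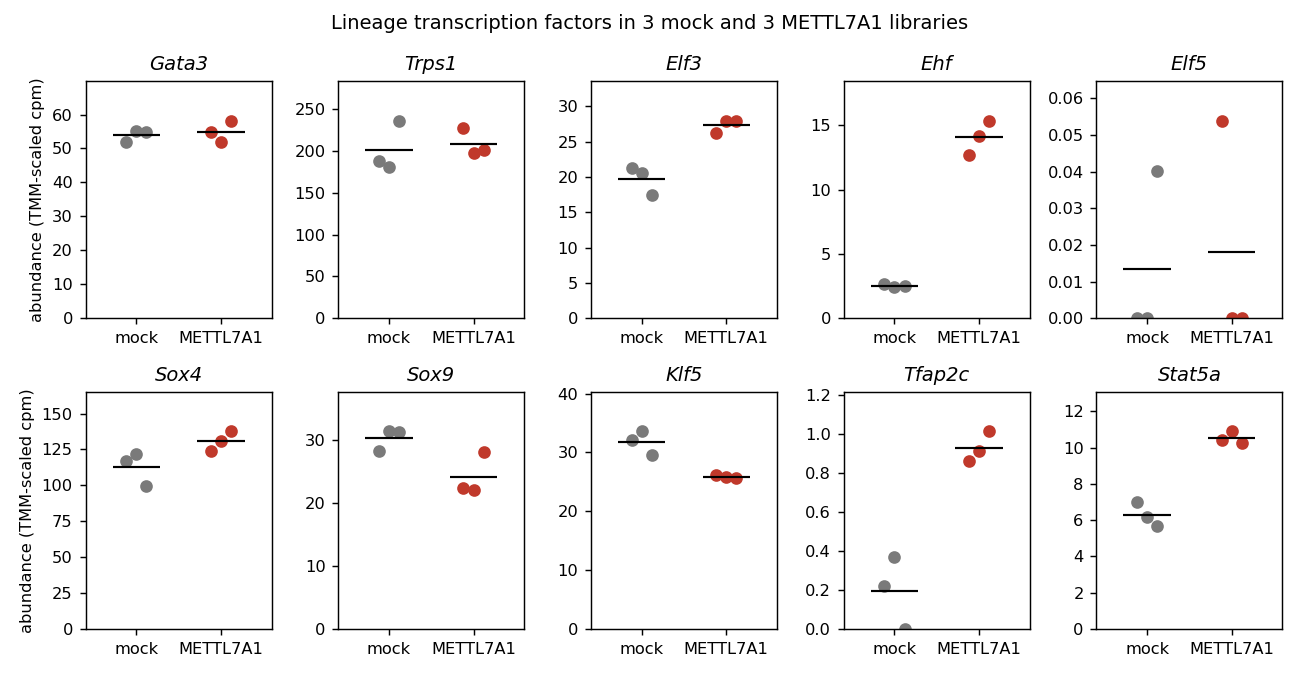
Abundance of each of the 10 factors in every library, in cpm on TMM-scaled library sizes, with 1 panel for each gene. Points are the 3 METTL7A1 and 3 mock libraries and horizontal bars the group means. Ehf lies between 12.7 and 15.4 cpm in METTL7A1 libraries and between 2.44 and 2.68 cpm in mock libraries, whereas the points of Gata3 and Trps1 overlap.

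The ETS factors of epithelia were first compared. EHF, ELF3 and ELF5 belong to a subfamily of ETS proteins largely restricted to epithelial cells. Ehf (chr2:103263433-103303278, minus strand, mm10) and Elf5 (chr2:103411688-103450989, plus strand) are neighbours, separated by 108.4 kb, and Elf3 (chr1:135253575-135258568, minus strand) lies on another chromosome. The RefSeq promoter table for GRCm38.p6, the patch release of the same build, held windows from 250 bases before to 50 bases after a start site for Elf3 and Elf5, with a pair of windows for the latter. They are shown because they compare an ETS gene read in every library with one nearly silent in both groups, and capitals mark each CAGGTG on either strand, the E2-box, a core that repressors such as SNAI1 and ZEB1 are known to bind. The Elf3 window (chr1:135258423-135258722, minus strand) has 1 E2-box that begins 140 bases before the start site. The upstream Elf5 window (chr2:103411848-103412147, plus strand) has 3, which begin 155, 112 and 11 bases before the start site, and the downstream Elf5 window (chr2:103423818-103424117, plus strand) has 1 that begins at base 22 of the transcript.
Elf3 promoter: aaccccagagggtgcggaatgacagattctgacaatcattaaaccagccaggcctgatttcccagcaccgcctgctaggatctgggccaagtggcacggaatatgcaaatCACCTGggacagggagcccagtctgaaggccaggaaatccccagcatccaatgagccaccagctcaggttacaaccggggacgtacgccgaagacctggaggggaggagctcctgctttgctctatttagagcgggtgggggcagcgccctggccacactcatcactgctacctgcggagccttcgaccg
Elf5 upstream promoter: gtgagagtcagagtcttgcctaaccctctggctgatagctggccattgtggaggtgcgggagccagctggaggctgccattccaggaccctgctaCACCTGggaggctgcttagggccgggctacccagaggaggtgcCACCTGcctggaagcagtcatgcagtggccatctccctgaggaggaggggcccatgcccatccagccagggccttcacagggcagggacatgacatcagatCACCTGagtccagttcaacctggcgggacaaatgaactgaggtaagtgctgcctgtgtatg
Elf5 downstream promoter: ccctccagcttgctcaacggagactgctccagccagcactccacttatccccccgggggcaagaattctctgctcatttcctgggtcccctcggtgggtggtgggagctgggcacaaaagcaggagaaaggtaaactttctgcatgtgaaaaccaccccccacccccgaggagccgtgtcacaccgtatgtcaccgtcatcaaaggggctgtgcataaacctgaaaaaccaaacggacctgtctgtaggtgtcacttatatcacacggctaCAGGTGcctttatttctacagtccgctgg
An E2-box occurred in 20.2% of the 32851 promoter windows in the table. Entries were present for 5 of the 10 factors, in 7 windows, and Ehf was not among them. The windows of Gata3 and Sox4 and 1 of the pair for Stat5a held no E2-box, and the other Stat5a window held 1, 62 bases before the start. None of the 7 windows contained TTCNNNGAA, the palindrome of STAT dimers, or AGATAA on either strand, the letters of a GATA site, which occurred in 8.3% and 11.2% of all windows. These matches are of letters only, since binding was not measured. A link between E2-boxes and the levels of Elf3 and Elf5 was not tested.

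Ehf was measured at 12.7, 14.2 and 15.4 cpm in METTL7A1 libraries and 2.68, 2.44 and 2.496 cpm in mock libraries. Each METTL7A1 library lay far above each mock library. The group means were 14.1 ± 1.33 and 2.54 ± 0.127 cpm (SD, n = 3), a log2 fold change of 2.48 (SE 0.14, 95% interval 2.18 to 2.78, edgeR adjusted p = 3.19e-07). This placed Ehf above 99.5% of all tested genes by log2 fold change. The nearest expressed genes on either side changed less, with log2 fold changes of 0.37 for Cat, which encodes catalase, and 0.42 for Apip, an enzyme of methionine salvage (edgeR adjusted p = 0.00421 and 0.0153). The median over the 40 nearest expressed genes was 0.13.

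Elf3 was at 26.2, 28 and 27.9 cpm in METTL7A1 libraries and 21.2, 20.6 and 17.4 cpm in mock libraries. The ranges did not overlap, and the gap between them was smaller than that of Ehf. Elf3 rose from 19.7 ± 2.05 to 27.4 ± 1.03 cpm (SD, n = 3), a log2 fold change of 0.48 (SE 0.09, 95% interval 0.27 to 0.68, edgeR adjusted p = 0.00188). Its 40 nearest expressed genes had a median log2 fold change of 0.04. An antisense transcript over Elf3 exons, Gm26642, had at most 28 counts in any library.

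Elf5 was close to absent. It had 1 count in METTL7A1 replicate 1, 1 count in mock replicate 3 and 0 in the other 4 libraries. At these depths a count of 0 allows up to 0.102 to 0.164 cpm per library (3 counts), for counting error only, and no difference between the groups was detectable. The fit without an abundance filter gave Elf5 a difference of -0.04 on the log2 scale (SE 1.78). Elf5 thus was nearly unread in both groups 2.9 kb from Cat and 108.4 kb from Ehf, which had 236 to 418 counts in METTL7A1 libraries and 49 to 62 in mock libraries.

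Among the other ETS genes listed, Elf1, a broadly expressed factor, fell by 0.34 on the log2 scale (SE 0.07, edgeR adjusted p = 0.00357), and its 40 nearest expressed genes had a median of -0.34. Elf2 and Elf4 did not pass the test, with log2 fold changes of 0.12 and 0.08. In all, 5 of the 7 ETS genes were tested, of which 2 rose, both of them epithelial factors, and 1 fell. That was 60% called beside 42.1% of all tested genes, and at so few genes the count is a description.

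**Figure D2:**
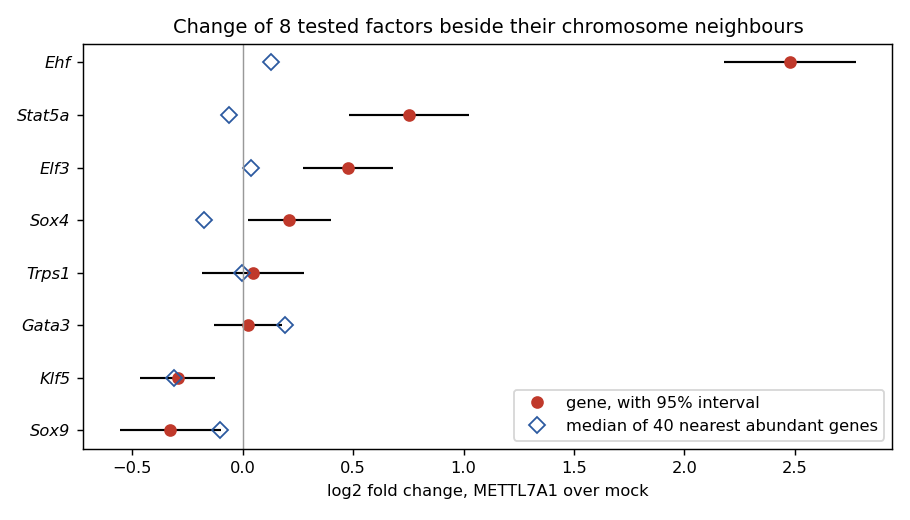
Log2 fold change (METTL7A1 over mock) of the 8 tested factors with 95% intervals from the edgeR fit, beside the median over the 40 nearest expressed genes of each. Ehf, at 2.48, stands far from its neighbourhood median of 0.13, while Klf5, at -0.30, coincides with its neighbourhood median of -0.31.

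STAT5A transmits the prolactin signal to milk protein genes. Stat5a (chr11:100859351-100885169, plus strand) was at 10.4, 10.9 and 10.3 cpm in METTL7A1 libraries and 6.997, 6.15 and 5.68 cpm in mock libraries. All METTL7A1 libraries were above all mock libraries, and the METTL7A1 values were the more closely spaced. The means were 10.5 ± 0.338 and 6.27 ± 0.67 cpm (SD, n = 3), a log2 fold change of 0.75 (SE 0.12, 95% interval 0.48 to 1.02, edgeR adjusted p = 6.21e-04). The median of its 40 nearest expressed genes was -0.06.

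The neighbours of Stat5a within the STAT cluster moved less. Stat5b, a close paralog that could share reads with Stat5a, lies 8.6 kb away and was at 38.4 ± 1.93 and 35.7 ± 1.41 cpm (SD, n = 3), a log2 fold change of 0.11 (edgeR adjusted p = 0.263). Stat3, whose exons overlap those of Stat5a on the opposite strand and which had up to 1316 counts, had a log2 fold change of -0.05 (edgeR adjusted p = 0.671). Elsewhere in the family Stat6, the transducer of interleukin-4, rose by 0.64 and Stat2, of the interferon pathway, by 0.75 on the log2 scale (edgeR adjusted p = 9.00e-05 and 1.60e-04). The 40 nearest expressed genes of each had medians of 0.53 and 0.44. Of the 7 STAT genes 6 were tested, 3 rose and none fell, or 50% called beside 42.1% of all tested genes.

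GATA3 and TRPS1 both contain GATA-type zinc fingers, the former an activator of luminal genes and the latter a repressor. Gata3 (chr2:9857078-9878600, minus strand) was at 54.8, 52.0 and 58.2 cpm in METTL7A1 libraries and 52.0, 55.2 and 54.9 cpm in mock libraries. These ranges overlapped almost fully. The log2 fold change was 0.02 (SE 0.07, edgeR adjusted p = 0.811), with a 95% interval of -0.13 to 0.18.

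Trps1 (chr15:50654752-50890041, minus strand) was at 227, 198 and 201 cpm in METTL7A1 libraries and 188, 181 and 236 cpm in mock libraries. The highest value of all, and the lowest, were both in mock libraries. Its log2 fold change was 0.05 (SE 0.10, edgeR adjusted p = 0.749), with a 95% interval of -0.18 to 0.28. Changes within these intervals were not detectable with 3 libraries a group.

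Of 9 listed GATA factors and cofactors 5 were tested. Zfpm2, which encodes the GATA cofactor FOG2, was the 1 gene called, or 20% of those tested beside 42.1% of all tested genes. It rose from 4.95 ± 0.458 to 12.5 ± 0.429 cpm (SD, n = 3), a log2 fold change of 1.32 (edgeR adjusted p = 1.25e-05). Gata4, a factor of heart and endoderm, had a log2 fold change of -0.12 (edgeR adjusted p = 0.514).

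SOX4 and SOX9 carry an HMG-box DNA-binding domain. Sox4 (chr13:28948919-28953713, minus strand) was at 124, 131 and 138 cpm in METTL7A1 libraries and 117, 122 and 99.7 cpm in mock libraries. The groups did not overlap, but the lowest METTL7A1 library and the highest mock library were closer to each other than replicates within either group were at their extremes. The log2 fold change was 0.21 (SE 0.08, 95% interval 0.02 to 0.40), which did not pass the test after adjustment over all genes (edgeR adjusted p = 0.0673). The 40 nearest expressed genes had a median of -0.18. Sox4 passed in 7 of 15 alternative analyses, with log2 fold changes of 0.14 to 0.39 over the 15. Leaving out METTL7A1 replicate 1 gave 0.25 and leaving out mock replicate 2 gave 0.27, both past the threshold (edgeR adjusted p = 0.0278 and 0.0422).

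Sox9 (chr11:112782224-112787760, plus strand) was at 22.4, 22.1 and 28.2 cpm in METTL7A1 libraries and 28.3, 31.4 and 31.4 cpm in mock libraries. The groups nearly touched, with METTL7A1 replicate 3 just under mock replicate 1. Sox9 fell from 30.4 ± 1.78 to 24.2 ± 3.46 cpm (SD, n = 3), a log2 fold change of -0.33 (SE 0.10, 95% interval -0.56 to -0.10, edgeR adjusted p = 0.0257). This call depended on single libraries. It was lost without METTL7A1 replicate 1 or replicate 2 and without mock replicate 2 or replicate 3, at log2 fold changes of -0.27, -0.27, -0.30 and -0.29 (edgeR adjusted p = 0.0693, 0.131, 0.0759 and 0.0569). It was also lost after the median of its neighbours, -0.10, was subtracted (-0.22, edgeR adjusted p = 0.127).

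Of 19 SOX genes 7 were tested, of which 3 rose and Sox9 fell, or 57.1% called beside 42.1% of all tested genes. Sox13, at 10.1 ± 0.66 cpm in METTL7A1 and 3.79 ± 0.462 cpm in mock libraries (SD, n = 3), had a log2 fold change of 1.42 (edgeR adjusted p = 2.00e-05). Sox15 and Sox12 rose by 0.77 and 0.50 on the log2 scale (edgeR adjusted p = 0.0063 and 0.0074).

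KLF5 promotes proliferation of epithelial progenitors. Klf5 (chr14:99298691-99313405, plus strand) was at 26.1, 25.9 and 25.6 cpm in METTL7A1 libraries and 32.1, 33.6 and 29.5 cpm in mock libraries. The 3 METTL7A1 values were almost identical and all lay below the mock values. The means were 25.9 ± 0.228 and 31.7 ± 2.05 cpm (SD, n = 3), a log2 fold change of -0.30 (SE 0.08, 95% interval -0.47 to -0.12, edgeR adjusted p = 0.0106). The genes around Klf5 were lower to the same extent. The median of the 40 nearest expressed genes was -0.31. The closest expressed genes on either side were Pibf1, 44.2 kb away, and Tbc1d4, 2129 kb away. They had log2 fold changes of -0.39 and -0.31 (edgeR adjusted p = 0.00672 and 0.00314). Relative to that median the difference of Klf5 was 0.01 (edgeR adjusted p = 0.909). Without mock replicate 2 it was -0.25 and missed the threshold (edgeR adjusted p = 0.051).

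In the KLF family 12 of 17 genes were tested, of which 3 rose and 2 fell. That was 41.7% called, close to the 42.1% of all tested genes. Klf10, induced by TGF-β, fell with a log2 fold change of -0.40 and Klf7 rose with one of 0.44 (edgeR adjusted p = 0.00156 and 0.0039). Klf6, the most abundant of them, was at 218 ± 6.69 and 215 ± 14.6 cpm (SD, n = 3), a log2 fold change of 0.02. Klf4 had a log2 fold change of -0.16 (edgeR adjusted p = 0.372).

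TFAP2C is an AP-2 factor of the luminal lineage. Tfap2c (chr2:172549593-172558622, plus strand) was below the abundance filter, with 16, 27 and 25 counts in METTL7A1 libraries and 4, 9 and 0 counts in mock libraries. In cpm these were 0.862, 0.914 and 1.01 against 0.219, 0.371 and 0. Each METTL7A1 library was above each mock library, at a level near 1 cpm. In a fit of the 28601 genes kept without the filter, the log2 fold change was 2.27 (SE 0.45, edgeR adjusted p = 7.04e-06), an estimate that rests on 13 mock counts in all.

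Its paralog Tfap2a was more abundant and was at 11.96 ± 1.46 and 11.0 ± 2.17 cpm (SD, n = 3), with a log2 fold change of 0.11 (edgeR adjusted p = 0.591). Tfap2b and Tfap2e had 0 counts in all libraries. Of the 7 AP-2 genes and partners 3 were tested, and Kctd15, an inhibitor of AP-2 factors, was the 1 called, with a log2 fold change of 0.38 (edgeR adjusted p = 0.0409). That was 33.3% of those tested, beside 42.1% of all tested genes.

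The relative levels of the factors were then compared as cpm per kb of exon length. In METTL7A1 cells the order was Sox4 at 27.3 ± 1.47 cpm per kb, Gata3 at 17.1 ± 0.971, Trps1 at 15.7 ± 1.2, Klf5 at 15.0 ± 0.133 and Elf3 at 13.1 ± 0.491 (SD, n = 3). Sox9 at 5.86 ± 0.837, Ehf at 3.06 ± 0.288, Stat5a at 2.65 ± 0.0851 and Tfap2c at 0.284 ± 0.0235 cpm per kb followed, and Elf5 was last. The ranges of Gata3 and Trps1 overlapped, as did those of Trps1 and Klf5, so these neighbours could not be ordered. In mock cells the order was Sox4 at 23.6 ± 2.44, Klf5 at 18.4 ± 1.19, Gata3 at 16.8 ± 0.539, Trps1 at 15.2 ± 2.28, Elf3 at 9.42 ± 0.979 and Sox9 at 7.35 ± 0.431 cpm per kb (SD, n = 3). Below them were Stat5a at 1.58 ± 0.169, Ehf at 0.55 ± 0.0276 and Tfap2c at 0.06 ± 0.0569 cpm per kb. Here Trps1 overlapped both Gata3 and Klf5, and Tfap2c overlapped Elf5. Klf5 thus stood narrowly above Gata3 in mock libraries and below it in METTL7A1 libraries, and Ehf passed Stat5a.

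**Figure D3:**
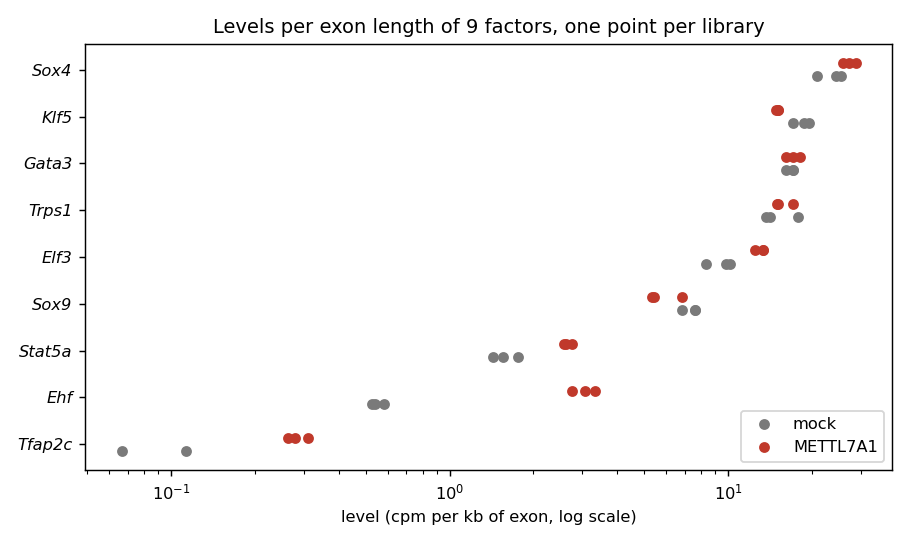
Level of 9 factors in cpm per kb of exon length on a log axis, with points for the 3 METTL7A1 and 3 mock libraries. Elf5, and Tfap2c in mock replicate 3, which had 0 counts, are not drawn, and Sox4 is highest in both groups, at a mean of 27.3 and 23.6 cpm per kb.

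Ratios within a library do not depend on how libraries are scaled. The Ehf to Elf3 ratio of cpm per kb was 0.221, 0.230 and 0.250 in METTL7A1 libraries and 0.0574, 0.0537 and 0.0652 in mock libraries. The balance of these related factors therefore differed between all libraries of the groups, although Elf3 remained the more abundant. The Sox4 to Sox9 ratio was 4.77, 5.10 and 4.21 in METTL7A1 libraries and 3.57, 3.34 and 2.74 in mock libraries. The Klf5 to Elf3 ratio was 1.21, 1.13 and 1.12 compared with 1.84, 1.99 and 2.07. Both pairs were without overlap between groups. This had to follow, since the genes of each pair were already separated in opposite directions, and it adds no support of its own. The Trps1 to Gata3 ratio was 0.835 to 1.00 and 0.794 to 1.04, with overlap.

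Other factors of the mammary lineages were examined next. Of 30 listed, 16 were tested, 1 rose and 4 fell, or 31.25% called beside 42.1% of all tested genes, with a median log2 fold change of -0.09. Id2, an inhibitor of bHLH factors needed for alveolar development, fell from 15.6 ± 1.88 to 3.39 ± 0.30 cpm (SD, n = 3), a log2 fold change of -2.20 (edgeR adjusted p = 7.66e-07). Its neighbourhood median was -0.48. Myb, a proliferation factor of luminal cells, and Grhl1, a factor of epithelial barriers, fell with log2 fold changes of -1.06 and -0.64 (edgeR adjusted p = 1.55e-04 and 0.0133), with neighbourhood medians of -0.37 and -0.52. The remaining called genes, named after their values were seen, were Cbfb at -0.24 and Foxa1, a pioneer factor of luminal cells, at 0.47 (edgeR adjusted p = 0.0366 and 0.0329). Foxa1 lay among genes with a median of -0.51. Nfib, the most abundant, had a log2 fold change of -0.19 (edgeR adjusted p = 0.0692).

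Luminal and basal marker genes, many of them known targets of such factors, did not move as blocks. Of 20 luminal markers 12 were tested, 5 rose and 2 fell, with a median of 0.12. That was 58.3% called, beside 42.1% of all tested genes (21.1% higher and 21.0% lower). Lcn2, the secreted lipocalin-2, rose from 11.7 ± 1.22 to 64.8 ± 14.4 cpm (SD, n = 3), by 2.47 on the log2 scale (edgeR adjusted p = 8.06e-07). The claudin genes Cldn3 and Cldn4 rose by 1.49 and 1.19 (edgeR adjusted p = 1.96e-05 and 2.40e-05). The 2 that fell, named after their values were seen, were Areg and Cd24a. Their log2 fold changes were -1.02 and -0.74 (edgeR adjusted p = 8.5e-05 and 1.7e-04). Cdh1, encoding E-cadherin and the most abundant of the list, was at -0.02 and Krt18 at 0.24 (edgeR adjusted p = 0.879 and 0.114). Of 20 basal markers 9 were tested, 1 rose and 4 fell, with a median of -0.17, or 55.6% called beside the same 42.1%. Krt14, a keratin of basal cells, fell from 37.8 ± 1.16 to 9.79 ± 0.722 cpm (SD, n = 3), a log2 fold change of -1.94 (edgeR adjusted p = 7.54e-08). Vim, the intermediate filament vimentin and the most abundant basal gene in the mean of all libraries, fell with a log2 fold change of -1.16, whereas the Notch ligand gene Jag2 rose with one of 0.81 (edgeR adjusted p = 1.17e-05 and 1.17e-04).

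Milk and secretory genes lie downstream of ELF5 and STAT5A in the gland. Of 18 listed, 8 had 0 counts in all 6 libraries, among them the casein genes Csn1s1, Csn1s2a, Csn1s2b and Csn2 and the whey genes Wap and Lalba. Just 4 were tested and these rose, beside 21.1% higher among all tested genes, and at 4 genes the count is a description. Xdh, the xanthine dehydrogenase of the milk fat globule, rose from 2.61 ± 0.356 to 10.9 ± 0.72 cpm (SD, n = 3), by 2.07 on the log2 scale (edgeR adjusted p = 2.05e-06). Spp1, encoding osteopontin and the most abundant, rose by 1.43 and Btn1a1, the butyrophilin of the globule membrane, by 1.26 (edgeR adjusted p = 5.16e-06 and 6.45e-05). Mfge8, the fourth, rose by 0.28 (edgeR adjusted p = 0.0395). These transcripts are also made outside lactation.

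In the prolactin and STAT5 pathway 18 of 22 genes were tested, 6 rose and 3 fell, with a median of 0.11. That was 50% called, beside 42.1% of all tested genes. The receptor gene Prlr had 2 counts in METTL7A1 replicate 3 and 0 in the other 5 libraries. The kinase gene Jak2 was at 140 ± 3.31 and 130 ± 4.2 cpm (SD, n = 3), a log2 fold change of 0.11 (edgeR adjusted p = 0.202). Among genes known to respond to STAT5, Pim1, a survival kinase, was at 37.2, 40.3 and 42.0 cpm against 11.2, 12.5 and 11.2 cpm, and Socs2, a feedback inhibitor, at 8.19, 10.0 and 10.8 cpm against 2.68, 3.18 and 3.62 cpm. Both were higher in every METTL7A1 library, by 1.78 and 1.61 on the log2 scale (edgeR adjusted p = 1.56e-07 and 2.45e-05). Other listed genes known to respond to STAT5, named after their values were seen, were mixed. Cish, a feedback inhibitor, had a log2 fold change of -0.38 with overlapping groups (edgeR adjusted p = 0.301), Bcl6 was at -0.01, and Socs1 fell with a log2 fold change of -0.60 (edgeR adjusted p = 0.966 and 0.0264). Bcl2l1, a survival gene, rose by 0.61 (edgeR adjusted p = 6.28e-05). Socs2 lay among genes with a median of 0.44, and Pim1 among genes with a median of 0.12. Id2, which is on this list too, fell. Ccnd1, encoding cyclin D1 and the most abundant, had a log2 fold change of -0.14 (edgeR adjusted p = 0.329).

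**Figure D4:**
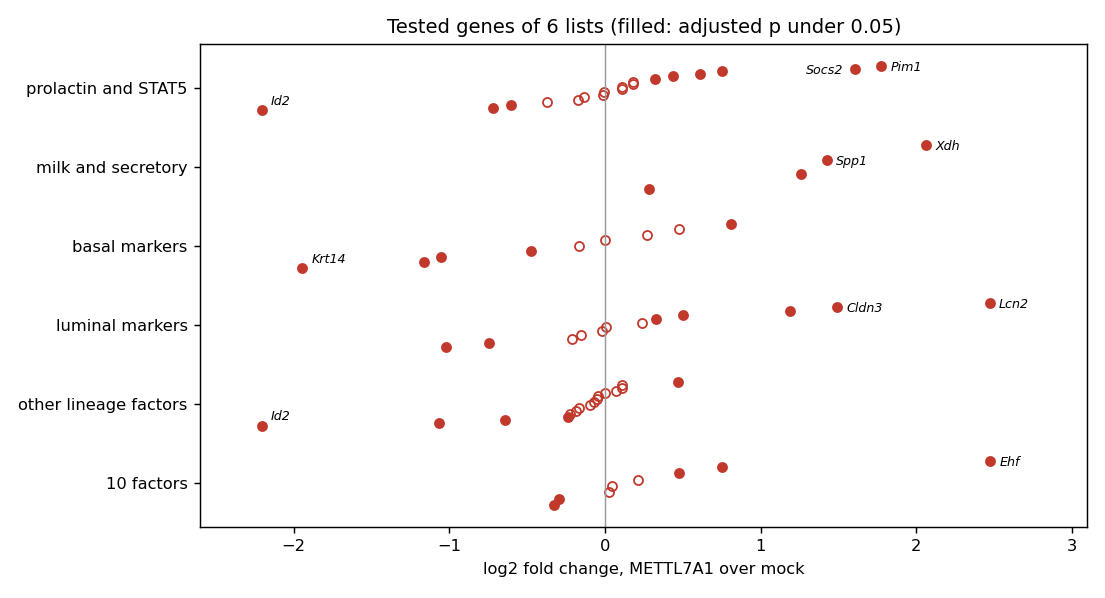
Log2 fold change (METTL7A1 over mock) of every tested gene among the 10 factors, the other lineage factors and the luminal, basal, milk and STAT5 pathway lists, each a row of points. Filled points are genes called by edgeR at an adjusted p under 0.05 and open points those not called. The 4 tested milk and secretory genes lie above 0, between 0.28 and 2.07, and the other lists spread to both sides.

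Markers of other cell types were read beside these results. The summed level of 8 leukocyte markers was 14.1 to 16.5 cpm in METTL7A1 and 5.90 to 6.80 cpm in mock libraries, and Cd68 rose by 1.23 on the log2 scale (edgeR adjusted p = 5.05e-05), while Cd3e had no counts. Csf1r, at 2.27 to 2.48 cpm in METTL7A1 and 0.483 to 0.984 cpm in mock libraries, passed the abundance filter through the METTL7A1 libraries alone. The sum of 8 fibroblast markers was 24.0 to 26.8 and 17.5 to 19.9 cpm, with Pdgfra, the 1 tested, at a log2 fold change of 0.47 (edgeR adjusted p = 0.00177) and Lum at 0 counts. The sum of 6 endothelial markers was low, at 1.39 to 1.46 and 0.82 to 1.09 cpm without overlap, and none of them had over 16 counts in a library. The sum of 5 adipocyte markers, 0.162 to 0.203 and 0.124 to 0.164 cpm, was close to the limit of detection. No endothelial or adipocyte marker was tested. The part of such cells or transcripts in the changes of Ehf, Stat5a and Elf3 was not tested.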

How the data were processed

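Total RNA of 4T1 cells was sequenced in 6 libraries, 3 METTL7A1 and 3 mock, with groups and replicate numbers taken from the sample titles. The authors aligned reads with STAR 2.5.3a to mm10 and counted them over genes with featureCounts. The deposited values are raw, unnormalized counts, listed with exon coordinates and exon lengths. How strand and reads with several matches were handled is not given in the sources used here. AY036118 lies within Gm42418 on the opposite strand. It had 92294 to 2665015 counts over the libraries, beside 67951 to 224214 for Gm42418. Counting by strand would allow both, and the library preparation of the study was stranded. Reads of Stat5a and Stat3 were therefore treated as separate.

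Genes with at least 1 cpm in at least 3 libraries (13166 of 48587), the filter of the study, were tested in R 4.3.3 with edgeR 4.0.16 (TMM factors, glmQLFit and glmQLFTest, no covariate), and p values were adjusted over all tested genes by the Benjamini-Hochberg method. A gene was called at an adjusted p under 0.05. The thresholds of the study were an adjusted p under 0.01 and a log fold change over 1.5, taken here as log2. The SE was the size of the log2 fold change over the square root of F, and 95% intervals are approximate and unadjusted. The biological coefficient of variation was 0.0915. Coordinates are those of the deposited table, counted from 1. The neighbourhood median covered the 40 nearest genes on the chromosome with a mean log2 cpm over 2. The nearest expressed genes named beside a factor met the same cut. Promoter windows were from RefSeq (GRCm38.p6).

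The members and the 15 gene lists were chosen with earlier results of these data known, and no list was tested as a set. The text names all 10 factors, in each list up to 3 called genes with the smallest adjusted p and the most abundant tested gene, tested relatives of the factors where needed, Prlr and Jak2, and Mettl7a1. Markers named for cell identity (Krt8, Krt18, Krt5, Trp63, Itga6, Cd3e, Lum), Csf1r, Mfge8, casein and whey genes at 0, the genes flanking a factor and those the text says so of were chosen after their values were seen. The fit was also run on simulated data in which a small part of the genes was changed, equally up and down. That setting is unlike this comparison, where 42.1% of tested genes were called, and its outcome is not used here. Alternatives were RLE and upper quartile scaling, the abundance filter, leaving out the 20 most abundant genes, a replicate block, DESeq2 1.42.0, limma voom 3.58.1, glmTreat, an offset for neighbouring genes and leaving out each library.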

Additional observations from a re-analysis of the deposited data

How the results depend on the processing

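Ehf, Elf3 and Stat5a were called and higher in METTL7A1 cells under all 15 alternatives, with log2 fold changes of 2.35 to 2.55, 0.40 to 0.55 and 0.70 to 0.85. Gata3 (-0.17 to 0.06) and Trps1 (-0.03 to 0.19) were called in 0 of 15. Sox9 (-0.46 to -0.22) was called in 10 and Klf5 in 13. With the offset for neighbouring genes Klf5 turned to 0.014 (edgeR adjusted p = 0.909). Without an abundance filter 2 factors passed the thresholds of the study, Ehf and Tfap2c. Of the other lineage factors 3 were called with the replicate block, and 3 to 5 when a library was left out, with 3 in the absence of METTL7A1 replicate 1, METTL7A1 replicate 2 or mock replicate 1. The cause of these differences was not tested. Deviations of same-numbered libraries correlated at -0.16, 0.25 and -0.40, so the numbers were not taken to pair the libraries, and with the replicate block 5 of the 10 factors were called. Among the results and alternatives computed, no other count over the lists moved by over 1.5 times. Depth limits Elf5 and Tfap2c, whose counts were near or below the floor in mock libraries, and 3 libraries a group limit the small differences of Sox4, Sox9 and Klf5.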

Other observations

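Several genes beside or related to the 10 factors had values that the comparisons above did not cover. They were chosen after their values were seen and are given as a description. Bmp7, which encodes a bone morphogenetic protein ligand, is the nearest expressed gene on 1 side of Tfap2c, at a distance of 309.4 kb. It had 438, 744 and 716 counts in METTL7A1 libraries and 77, 90 and 71 in mock libraries, and rose by 2.87 on the log2 scale (SE 0.14, edgeR adjusted p = 1.70e-07). The median over the 40 nearest expressed genes of Bmp7 was 0.13. Tfap2c and Bmp7 were thus both higher in every METTL7A1 library. On the other side of Tfap2c the nearest expressed gene, Gm14303, had a log2 fold change of -0.45 (edgeR adjusted p = 0.0492).

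Some relatives of the factors that were too low to test were read mainly in mock cells. Klf12, a repressor of the KLF family, had 0 counts in the METTL7A1 libraries and 6, 6 and 8 counts in the mock libraries. Its mock mean was 2.33-fold above a floor of 3 counts per METTL7A1 library, with counting error in the mock libraries left out. Klf12 (chr14:99874486-100149764) lies on the chromosome of Klf5, whose neighbours had a median log2 fold change of -0.31. Gata2, a factor of blood and endothelial cells, had 1, 1 and 2 counts compared with 10, 9 and 6. Low secretory genes went the other way, with Ltf, the lactoferrin gene, at 10, 25 and 16 counts in METTL7A1 libraries and 3, 4 and 2 in mock libraries. Csn3, encoding κ-casein, had 3, 21 and 16 counts compared with 2, 4 and 1, and its groups overlapped in cpm.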
